A study of Mus musculus with 6 samples.

Results

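The transcripts described here are those of the kinesin motors and the tubulins in mouse oocytes and cleavage-stage embryos. They were chosen by symbol alone: names that begin with Kif or Kifc and a digit, and names that begin with Tuba, Tubb or Tubg and a digit, which gave 60 of 23308 symbols, 42 kinesins and 18 tubulins. The tubulins comprised 7 alpha-, 9 beta- and 2 gamma-tubulin symbols, and 2 of the 60 symbols, Kif4-ps and Tubb2a-ps2, are named as pseudogenes. RNA was sequenced in 6 libraries of 60 oocytes or embryos each, from ICR-background females aged 21 to 23 days that had been given PMSG and hCG and, for embryos, mated. The 4-cell stage had 1 library labelled YAP-null (Yap1 deleted, from YAP-/- females) and 1 wild-type library, and the germinal vesicle (GV) stage, the fully grown oocyte before meiotic maturation, had 2 YAP-null and 2 wild-type libraries, numbered 1 and 2 in the titles. The label of the maternal mice does not name a Cre driver or the cells in which Yap1 was deleted, and nothing in the labels states which males were used. The source field of the 4-cell samples reads GV oocyte, while title, stage and tissue fields read 4-cell embryo. The title was followed.

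Microtubules are polymers of alpha- and beta-tubulin dimers, and gamma-tubulin seeds them. Vertebrates hold several genes for each, whose proteins are nearly alike in the body and differ mostly in the acidic tail that faces motors and associated proteins. Kinesins use ATP to walk along microtubules or to take their ends apart, and separate families carry cargo, build the spindle, align chromosomes or finish cytokinesis. Mouse oocytes and early embryos assemble spindles without centrioles, first from stored maternal transcripts and then from transcripts of the embryo.

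Values are FPKM, fragments scaled by transcript length and library size, as the authors deposited them, and differences are on the log2(FPKM + 1) scale, which understates changes of low genes. Yap1 itself was at 33.3 FPKM in the YAP-null 4-cell embryos and 89.7 FPKM in the wild-type ones, and at 10.8 and 10.04 FPKM in YAP-null and 248 and 154 FPKM in wild-type GV libraries 1 and 2. This is 37.2% of the wild-type value in the YAP-null 4-cell embryos, whose own genotype is also labelled YAP-/-, and 5.19% in YAP-null GV oocytes. From 9984 to 10823 symbols reached 1 FPKM in a library; read totals are unknown. For the 22 to 32 members at 10 FPKM or more in a library, deposited bounds had a median half-width of 5.404% to 10.5% of the value, which covers error within a library and not between samples, and 1 to 7 members in a library had a value outside its own bounds. All 10 markers of the oocyte were present, at sums of 7064 and 10849 FPKM in YAP-null and 7882 and 11412 FPKM in wild-type GV libraries 1 and 2. Of 13 granulosa and cumulus cell markers 7 reached 1 FPKM in some library, with sums of 40.6 to 50.1 FPKM in GV oocytes. Of 7 markers of ovarian stroma and blood 3 did, with sums of 13.9 to 26.03 FPKM in GV oocytes, and of 6 sperm markers 2 did, with Prm1, Tnp1 and Tnp2 listed at 0 everywhere.

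Of the 60 members, 47 reached 1 FPKM in at least 1 library (33 kinesins and 14 tubulins), 36 reached 10 FPKM and 17 reached 100 FPKM. Kif12, Kif2b, Tubb1 and Tubb2a-ps2 were listed at 0 in all libraries. Kif19a, Kif1a, Kif21a, Kif4-ps, Kif5a, Kif6, Kif7, Tuba8 and Tubb4a stayed below 1 FPKM in all. Of these, Kif1a and Kif5a are known from neurons, Kif7 from cilia and Tubb1 from platelets. Other members known from neurons or cilia were present, among them Tubb3 (up to 416 FPKM), Kif17 (up to 104 FPKM) and Kif5c (up to 24.5 FPKM). Listed markers of neurons and ciliated cells other than Tubb3 stayed low. Map2 reached at most 3.74 FPKM, Syt1 3.48 FPKM and Rsph1 1.18 FPKM, and Snap25 and Foxj1 stayed below 1 FPKM. Kif13a, Kif26b, Kif27 and Kifc2 reached 1 FPKM in some library, with values of at most 2.66 FPKM. The stage test kept genes whose mean over the 6 libraries was at least 1 FPKM, which left 43 members, 29 kinesins and 14 tubulins.

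Summed tubulin transcript was lower at the 4-cell stage than in the oocyte, while the ranges of summed kinesin transcript overlapped. Summed tubulin was at 1217 FPKM in YAP-null 4-cell embryos and 1189 FPKM in wild-type ones, against 3214 and 2245 FPKM in YAP-null and 3242 and 2360 FPKM in wild-type GV libraries 1 and 2. Both 4-cell sums lay below all GV sums. Summed kinesin was at 884 and 1026 FPKM in the YAP-null and wild-type 4-cell libraries, against 858 and 945 FPKM in YAP-null and 837 and 963 FPKM in wild-type GV libraries 1 and 2. Per unit length there were 1.38 and 1.16 tubulin transcripts per kinesin transcript in the YAP-null and wild-type 4-cell libraries, against 3.74 and 2.38 in YAP-null and 3.88 and 2.45 in wild-type GV libraries. FPKM are shares of a library, so a smaller share and less RNA per cell cannot be told apart in these bulk samples. The sums were not tested, since the members were chosen with results known.

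**Figure D1:**
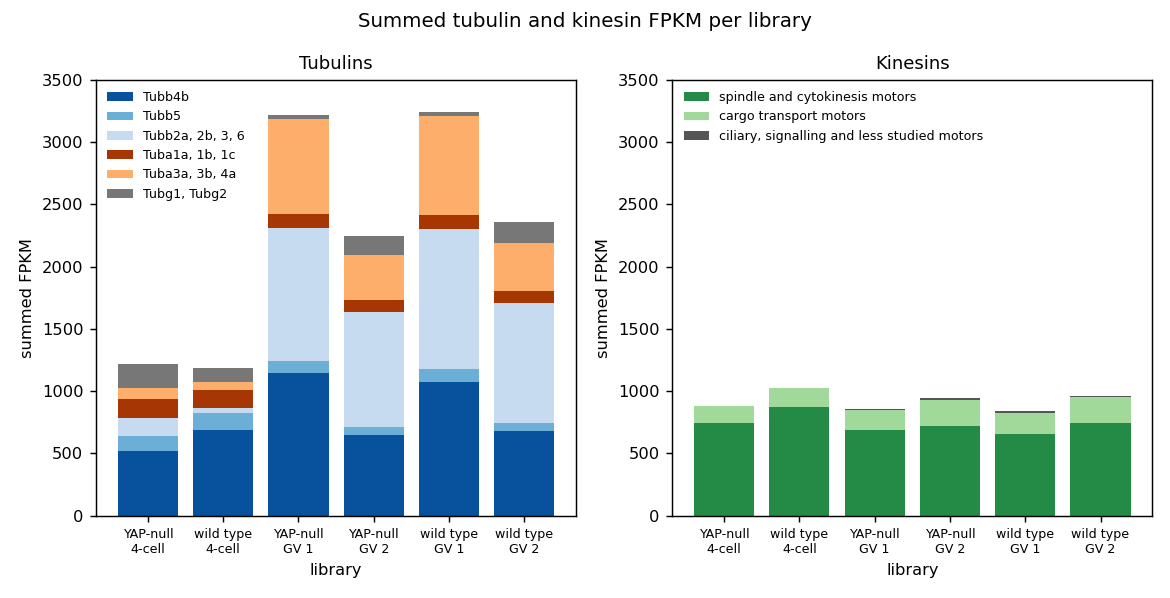
Summed FPKM (y axis, linear) of the tubulins (left, stacked by isotype group) and of the kinesins (right, stacked by role) in each of the 6 libraries. The 4-cell tubulin columns reach 1217 (YAP-null) and 1189 (wild type), below the 4 GV columns, while the kinesin columns lie between 837 and 1026; Tuba8, Tubb1, Tubb4a and Tubb2a-ps2, all under 1, are not drawn.

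The first comparison asked which motors and tubulins differ between the 4-cell embryo and the oocyte. It used limma on all 6 libraries with stage and genotype as terms. Of the 43 members tested, 11 rose and 10 fell at a Benjamini-Hochberg adjusted p of 0.05, which is 25.6% and 23.3%. Over all 11451 genes tested the percentages were 28.2 and 27.8, so the members as a whole changed about as often as other genes. All 21 members that passed had 4-cell values outside the range of the 4 GV libraries. Their direction was the same in both genotypes and against each numbered GV set separately. The 21 were picked by the stage test on these same values, so these traits add no support to it. Among the 43 members tested, 30.2% lay entirely above and 34.9% entirely below the GV range, beside 35.1% and 35.2% of all genes tested. Each genotype has a single 4-cell library, and GV libraries of the same number deviate together, so the fit counts more independent samples than there may be and its p-values may be too small. With GV values averaged within each number, an alternative chosen after seeing the data, 15 of the 21 still passed, and Kif15, Kif18a, Kif20a, Kif3a, Kif9 and Kif26a did not.

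Among beta-tubulins, 4 of 6 tested isotypes fell and 0 rose. Over all 14 tubulins tested 42.9% fell and 14.3% rose, beside 27.8% and 28.2% of all genes tested. Tubb2b, a class II isotype abundant in the developing brain, was at 9.72 and 1.64 FPKM in the YAP-null and wild-type 4-cell libraries, against 174 and 177 FPKM in YAP-null and 211 and 175 FPKM in wild-type GV libraries 1 and 2. The difference was -5.12 ± 0.524 (SE) with an adjusted p of 0.000613 in limma, the largest fall among the members. Its neighbour Tubb2a was at 44.5 and 7.35 FPKM in the YAP-null and wild-type 4-cell libraries, against 81.6 and 339.6 FPKM in YAP-null and 127 and 379 FPKM in wild-type GV libraries. All 4-cell values were lower, but the GV values of Tubb2a split by library number, and the difference (-3.30 ± 0.898, limma adjusted p 0.0207) was -2.40 against number 1 and -4.21 against number 2. Tubb3, the isotype used as a marker of neurons, was at 38.0 and 9.53 FPKM in the YAP-null and wild-type 4-cell libraries, against 416 and 188 FPKM in YAP-null and 353 and 180.1 FPKM in wild-type GV libraries (-3.72 ± 0.592, limma adjusted p 0.00270). Every GV library held more Tubb3 than Tubb5 per unit length, and neither 4-cell library did. Tubb6, a class V isotype, was at 50.1 and 26.5 FPKM in the 4-cell libraries, YAP-null and wild type, against 401 and 224 FPKM in YAP-null and 439 and 227 FPKM in wild-type GV libraries (-3.04 ± 0.488, limma adjusted p 0.00281).

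The other beta isotypes did not pass. Tubb4b, a widely expressed class IV isotype, was the most abundant member in every library, at 517 and 685 FPKM in the YAP-null and wild-type 4-cell libraries, against 1146 and 644 FPKM in YAP-null and 1075 and 677 FPKM in wild-type GV libraries (difference -0.52, limma adjusted p 0.4002). Tubb5, the class I isotype of dividing cells, was at 122 and 135 FPKM in the 4-cell libraries, against 95.1 and 64.3 FPKM in YAP-null and 99.6 and 66.2 FPKM in wild-type GV libraries. Both 4-cell values of Tubb5 exceeded all GV values, yet the difference of 0.68 had an adjusted p of 0.156. The make-up of summed beta-tubulin differed between the stages. Tubb4b was 66.2% and 79.2% of the summed beta-tubulin FPKM in the YAP-null and wild-type 4-cell libraries, against 39.3% to 49.5% in the GV libraries. Tubb5 was 15.6% in each 4-cell library, against 3.88% to 4.32% in GV. Tubb2a, Tubb2b, Tubb3 and Tubb6 together were 18.2% and 5.20% in the YAP-null and wild-type 4-cell libraries, against 46.4% to 56.7% in GV oocytes.

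Among alpha-tubulins 1 of 6 tested members rose and 2 fell, beside 28.2% and 27.8% of all genes tested. Tuba3a, an isotype known from testis, was at 39.4 and 19.0 FPKM in the YAP-null and wild-type 4-cell libraries, against 439 and 199 FPKM in YAP-null and 470.2 and 201 FPKM in wild-type GV libraries (-3.41 ± 0.561, limma adjusted p 0.00306). Tuba4a, the isotype whose gene does not encode the terminal tyrosine, was at 25.8 and 26.5 FPKM in the 4-cell libraries, against 268 and 133 FPKM in YAP-null and 263 and 152 FPKM in wild-type GV libraries (-2.85 ± 0.439, limma adjusted p 0.00239). In both genes every 4-cell value was below every GV value. Tuba1a, the alpha isotype of migrating neurons, rose to 25.0 and 20.6 FPKM in the YAP-null and wild-type 4-cell libraries, against 1.60 and 1.44 FPKM in YAP-null and 3.10 and 1.54 FPKM in wild-type GV libraries (3.05 ± 0.358, limma adjusted p 0.000908). Its neighbours Tuba1b, at 79.0 and 71.8 FPKM in the 4-cell libraries and 41.5 to 47.8 FPKM in GV, and Tuba1c, at 51.0 and 48.0 FPKM and 51.8 to 59.7 FPKM, did not pass (0.76 and -0.17). Tuba3b, a close copy of Tuba3a, was at 27.4 and 22.0 FPKM in the 4-cell libraries and 29.3 to 59.6 FPKM in GV, and did not pass (-0.78, limma adjusted p 0.174). Tuba1a, Tuba1b and Tuba1c together were 62.6% and 67.4% of summed alpha-tubulin FPKM in the YAP-null and wild-type 4-cell libraries, against 12.1% to 20.9% in GV.

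Of the gamma-tubulins 1 of 2 rose, beside 28.2% of all genes tested. Tubg1, the widely expressed gamma-tubulin, rose to 107 and 100.4 FPKM in the YAP-null and wild-type 4-cell libraries, against 16.8 and 27.0 FPKM in YAP-null and 19.5 and 29.8 FPKM in wild-type GV libraries (2.15 ± 0.364, limma adjusted p 0.00346). Tubg2, its close paralog known from brain and oocytes, was at 81.8 and 15.0 FPKM in the YAP-null and wild-type 4-cell libraries, against 11.6 and 125 FPKM in YAP-null and 15.1 and 144 FPKM in wild-type GV libraries. For Tubg2 the libraries ordered by GV number, not by stage, with a difference of 1.36 against number 1 and -1.89 against number 2, and it did not pass (-0.27, limma adjusted p 0.872). Summed over both copies, gamma-tubulin was at 189 and 115 FPKM in the YAP-null and wild-type 4-cell libraries, against 28.3 and 152 FPKM in YAP-null and 34.5 and 174 FPKM in wild-type GV libraries. The stages overlapped in this sum, with a stage difference of 1.03, so the rise of Tubg1 is less certain.

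Near-identical copies can trade fragments, so single isotypes are less certain than their sums. Tuba3a and Tuba3b together were at 66.8 and 40.9 FPKM in the YAP-null and wild-type 4-cell libraries, against 498 and 228 FPKM in YAP-null and 530 and 234 FPKM in wild-type GV libraries, and so stayed lower at the 4-cell stage. Tubb2a and Tubb2b together were at 54.2 and 8.98 FPKM, against 255 and 516 FPKM in YAP-null and 338 and 554 FPKM in wild-type GV libraries, which is also lower. Other sums did not keep the difference of a single copy, among them that of Tubg1 and Tubg2 given above. Kifc1 and Kifc5b together were at 113 and 105 FPKM in the YAP-null and wild-type 4-cell libraries, against 116 and 93.9 FPKM in YAP-null and 119 and 101 FPKM in wild-type GV libraries, a stage difference of 0.03. Tuba1a, Tuba1b and Tuba1c together were at 155 and 140.3 FPKM in the YAP-null and wild-type 4-cell libraries, against 106 and 95.4 FPKM in YAP-null and 110.1 and 95.9 FPKM in wild-type GV libraries, a stage difference of 0.53. Some member loci overlap another symbol, among them Tuba4a with Stk16, Tubb4b with Fam166a, Kif20a with Brd8 and Cdc23, Kif3c with 1110002L01Rik and Kif7 with Ticrr, and strand was not stated, so their fragments may be shared.

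**Figure D2:**
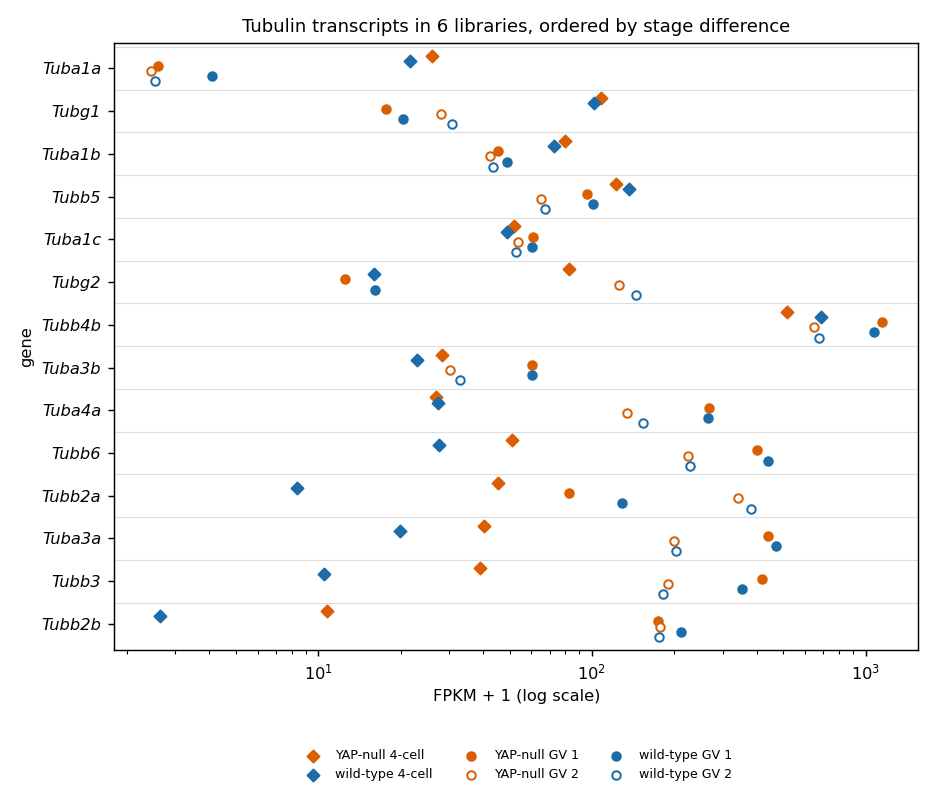
FPKM + 1 (x axis, log scale) of the 14 tubulins with a mean of at least 1 FPKM, with 1 point per library (diamonds 4-cell, circles GV, filled circles library 1, open circles library 2), ordered from the most positive stage difference (Tuba1a, 3.05) to the most negative (Tubb2b, -5.12). The wild-type 4-cell diamond lies furthest left of the YAP-null one for Tubb2a, Tubb2b, Tubb3, Tubb6, Tuba3a and Tubg2. It lies left by less for Tuba1a, Tuba1b, Tuba1c, Tuba3b and Tubg1.

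Of 15 tested spindle and cytokinesis motors 6 rose and 0 fell, and their median difference was 0.27, beside -0.10 over all genes tested. Over all 29 kinesins tested 31% rose and 13.8% fell, beside 28.2% and 27.8% of all genes tested. Kif14, of the same group, lay below the GV range without passing (-1.68, limma adjusted p 0.0746). It was at 4.55 and 3.21 FPKM in the YAP-null and wild-type 4-cell libraries and 6.42 to 28.4 FPKM in GV. With GV values averaged within each number, Kif11, Kif18b and Kifc5b still passed and Kif15, Kif18a and Kif20a did not. Kif18b, a plus-end motor that shortens astral microtubules together with Kif2c, had the largest rise of all members, to 101 and 100.3 FPKM in the YAP-null and wild-type 4-cell libraries, against 6.09 and 10.9 FPKM in YAP-null and 5.71 and 10.04 FPKM in wild-type GV libraries (3.51 ± 0.382, limma adjusted p 0.000711). Kifc5b, a minus-end motor gene closely related to Kifc1, rose to 26.9 and 29.0 FPKM in the 4-cell libraries, against 5.58 and 7.61 FPKM in YAP-null and 6.06 and 6.46 FPKM in wild-type GV libraries (1.97 ± 0.311, limma adjusted p 0.00263), but its sum with Kifc1 differed between the stages by only 0.03, so the rise of Kifc5b is uncertain. Both genotypes gave nearly the same 4-cell value of Kif18b and of Kifc5b.

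Kif11, which slides antiparallel microtubules to push spindle poles apart, rose to 36.0 and 39.5 FPKM in the YAP-null and wild-type 4-cell libraries, against 8.51 and 14.7 FPKM in YAP-null and 8.18 and 14.4 FPKM in wild-type GV libraries (1.68 ± 0.386, limma adjusted p 0.0110). Kif15, which can stand in for Kif11 in somatic cells, rose too but stayed low, at 1.99 and 2.58 FPKM in the 4-cell libraries and 0.211 to 0.993 FPKM in GV (1.13 ± 0.302, limma adjusted p 0.0194). Kif20a, which brings Aurora B to the central spindle, rose to 78.1 and 118 FPKM in the YAP-null and wild-type 4-cell libraries, against 34.4 to 39.6 FPKM in GV (1.34 ± 0.323, limma adjusted p 0.0132). Every 4-cell value of these genes lay above the GV range. Kif18a, which dampens chromosome movements at the metaphase plate, rose to 35.3 and 31.5 FPKM, against 12.7 to 17.99 FPKM in GV (1.11 ± 0.314, limma adjusted p 0.0241).

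The most abundant spindle motors did not pass. Kif22, a chromosome-arm motor and the kinesin with the highest mean, was at 154 and 226 FPKM in the YAP-null and wild-type 4-cell libraries, against 309 and 109 FPKM in YAP-null and 284 and 127 FPKM in wild-type GV libraries. Kif23, the motor of centralspindlin, was at 66.6 and 85.2 FPKM, against 83.6 and 165 FPKM in YAP-null and 76.1 and 173 FPKM in wild-type GV libraries. Both 4-cell values of Kif22 lay between the GV libraries numbered 2 and those numbered 1. Kifc1, a minus-end motor that bundles acentrosomal poles, was at 86.6 and 75.9 FPKM in the 4-cell libraries and 86.3 to 113 FPKM in GV. Kif2c, a microtubule depolymerase of the centromere, was at 78.9 and 62.5 FPKM in the 4-cell libraries and 63.6 to 83.2 FPKM in GV. Kif2a, a depolymerase of spindle poles, was at 15.0 and 21.1 FPKM in the 4-cell libraries and 9.84 to 21.9 FPKM in GV. Stage ranges of Kifc1, Kif2c and Kif2a overlapped, with differences of -0.31, -0.06 and 0.27.

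Kif4, a chromokinesin of the spindle midzone, and Kif20b, a cytokinesis motor, ordered by GV number. Kif4 was at 30.5 and 42.2 FPKM in the YAP-null and wild-type 4-cell libraries, against 12.0 and 101 FPKM in YAP-null and 17.3 and 94.9 FPKM in wild-type GV libraries 1 and 2. Kif20b was at 24.9 and 29.7 FPKM in the 4-cell libraries, against 0.789 and 24.9 FPKM in YAP-null and 0.667 and 28.7 FPKM in wild-type GV libraries 1 and 2. The stage difference of Kif4 was 1.26 against number 1 and -1.42 against number 2, and that of Kif20b 4.03 and 0.03. Kif24, which trims centrioles, was at 6.31 and 6.27 FPKM in the 4-cell libraries and 9.81 to 14.4 FPKM in GV, below the GV range without passing (-0.81, limma adjusted p 0.0655).

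Of 12 tested cargo motors 3 rose and 2 fell, beside 28.2% and 27.8% of all genes tested. Kif17, a kinesin-2 motor of dendrites, cilia and male germ cells, was by far the most abundant of them in oocytes and fell to 12.0 and 2.20 FPKM in the YAP-null and wild-type 4-cell libraries, against 103.7 and 83.3 FPKM in YAP-null and 104 and 87.0 FPKM in wild-type GV libraries (-3.88 ± 0.510, limma adjusted p 0.00137). Kif3a, a subunit of the heterotrimeric kinesin-2 that builds cilia, fell to 1.05 and 2.77 FPKM, against 4.04 and 11.2 FPKM in YAP-null and 4.53 and 10.7 FPKM in wild-type GV libraries (-1.51 ± 0.527, limma adjusted p 0.0480). All 4-cell values of Kif17 and Kif3a lay below the GV range, but Kif3a did not pass with GV values averaged within each number. Kif3c, a kinesin-2 relative, rose to 8.07 and 9.50 FPKM in the YAP-null and wild-type 4-cell libraries, against 0.0769 to 0.294 FPKM in GV (3.07 ± 0.247, limma adjusted p 0.000295).

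Kif5b, the widely expressed heavy chain of conventional kinesin, rose to 17.99 and 29.4 FPKM in the YAP-null and wild-type 4-cell libraries, against 1.51 and 3.07 FPKM in YAP-null and 1.53 and 4.49 FPKM in wild-type GV libraries (2.80 ± 0.444, limma adjusted p 0.00268). Kif1b, which carries mitochondria and synaptic vesicle precursors, rose to 22.1 and 22.9 FPKM, against 2.43 and 9.74 FPKM in YAP-null and 3.31 and 9.53 FPKM in wild-type GV libraries (1.88 ± 0.589, limma adjusted p 0.0342). Kif5c, a heavy chain known from neurons, was at 13.9 and 4.73 FPKM in the YAP-null and wild-type 4-cell libraries, against 0.932 and 24.5 FPKM in YAP-null and 0.909 and 20.8 FPKM in wild-type GV libraries 1 and 2, and did not pass (0.46, limma adjusted p 0.785). Kifc3, a minus-end motor of epithelial cells, was at 31.0 and 42.4 FPKM in the 4-cell libraries and 34.5 to 42.1 FPKM in GV, and Kif16b, a motor of early endosomes, at 12.4 and 18.4 FPKM and 3.60 to 13.8 FPKM. Neither passed. Of the ciliary and less studied motors only 2 of 8 were tested, and both fell: Kif9, of motile cilia and sperm tails, at 2.98 and 2.74 FPKM in the 4-cell libraries and 7.62 to 8.75 FPKM in GV (-1.23 ± 0.298, limma adjusted p 0.0138), and the atypical Kif26a, listed at 0 in YAP-null 4-cell embryos and at 0.514 FPKM in wild-type ones, against 1.21 to 3.16 FPKM in GV (-1.21 ± 0.363, limma adjusted p 0.0296). Neither Kif9 nor Kif26a passed with GV values averaged within each number. Over all genes tested 27.8% fell.

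Leaving out a 4-cell library leaves the stage with 1 library and lowers the number of calls. Without the wild-type 4-cell library, 7 of the 21 members still passed (Kif17, Kif18b, Kif3c, Kifc5b, Tuba1a, Tubb2b and Tubg1). Without the YAP-null 4-cell library, 13 of the 21 did. The sign of all 21 was the same in each genotype taken alone. The 21 were picked by the stage test on these same libraries, so this adds no support. Some members that lost the call had similar sizes in both genotypes, as Tuba4a (-2.82 in YAP-null and -2.87 in wild type), Kif1b (1.93 and 1.83) and Kif5b (2.57 and 3.03). Others differed in size, as Tubb2a (-1.88 in YAP-null and -4.73 in wild type), Tubb3 (-2.85 and -4.59) and Tuba3a (-2.87 and -3.95).

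**Figure D3:**
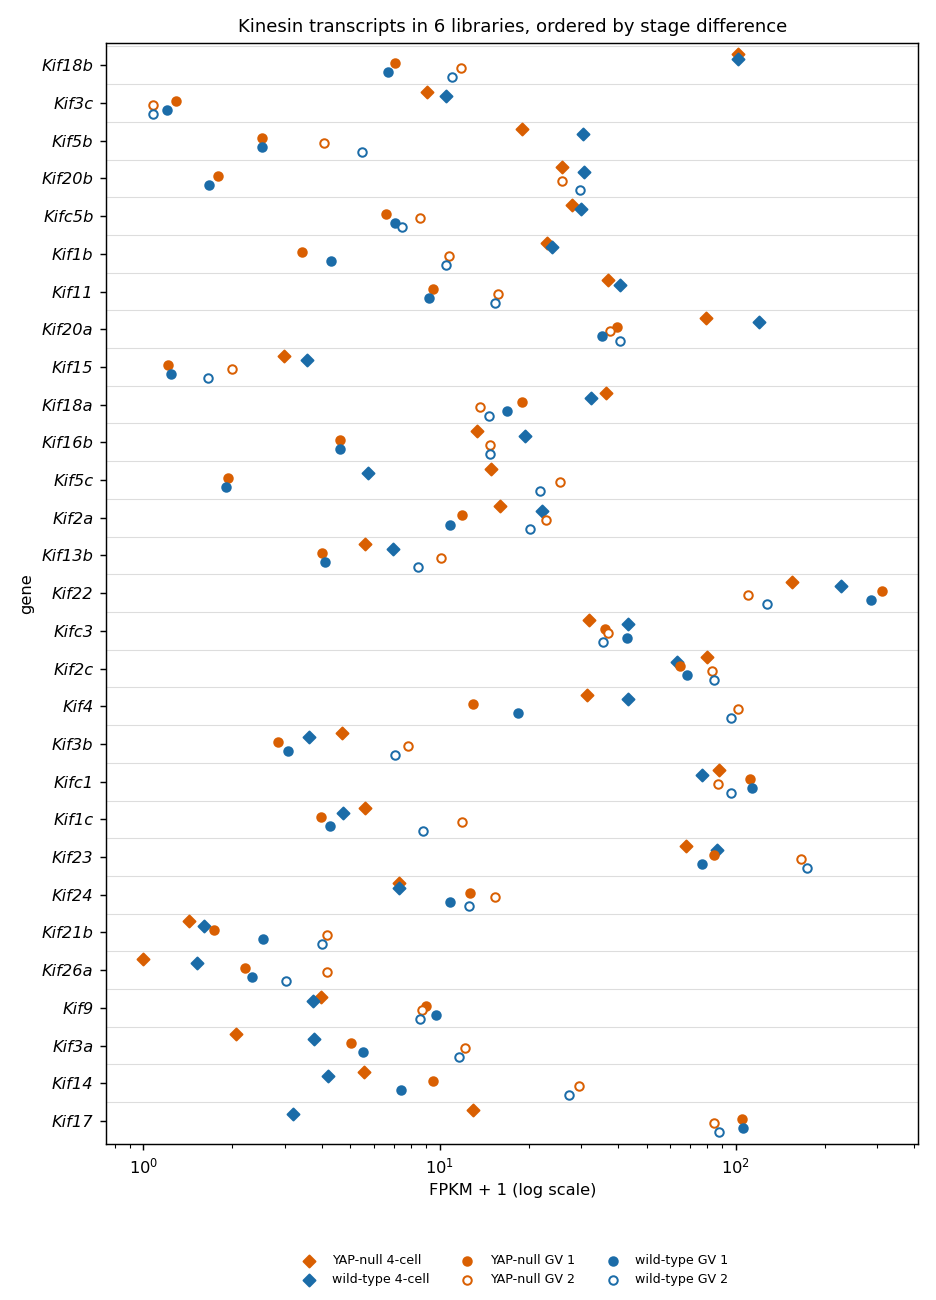
FPKM + 1 (x axis, log scale) of the 29 kinesins with a mean of at least 1 FPKM, drawn with 1 point per library (diamonds 4-cell, circles GV, filled circles library 1, open circles library 2) and ordered by stage difference, from Kif18b (3.51) to Kif17 (-3.88). In Kif20b, Kif5c and Kif4 the filled and open circles lie far apart in both genotypes.

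RefSeq gives promoter windows for 47 of the 60 members (51 windows, build GRCm38.p6, which differs from the mm9 build of the expression tables). The 250 bases before the start are shown for the 3 members that rose most and the 3 that fell most among those with a single window, to set the sequences of both directions side by side. Capitals mark the motif letters searched on both strands: GGAATG (TEAD, the factor family that binds YAP), CCAAT (the box bound by NF-Y), TTTGAA (CHR, an element of genes of mitosis) and TAATTG (NOBOX, an oocyte homeobox factor), of which CCAAT and TAATTG can overlap on opposite strands. Windows of Kif18b (chr11:102925125-102925374, minus strand), Kif3c (chr12:3364882-3365131, plus strand) and Tuba1a (chr15:98953502-98953751, minus strand) come first. Those of Kif17 (chr4:138262001-138262250, plus strand), Tubb3 (chr8:123411303-123411552, plus strand) and Tuba3a (chr6:125286082-125286331, minus strand), which fell, follow.
Kif18b: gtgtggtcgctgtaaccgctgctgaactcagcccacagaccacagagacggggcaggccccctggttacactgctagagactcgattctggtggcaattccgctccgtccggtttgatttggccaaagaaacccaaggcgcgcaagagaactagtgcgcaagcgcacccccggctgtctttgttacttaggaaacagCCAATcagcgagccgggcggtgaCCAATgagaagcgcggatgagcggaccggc
Kif3c: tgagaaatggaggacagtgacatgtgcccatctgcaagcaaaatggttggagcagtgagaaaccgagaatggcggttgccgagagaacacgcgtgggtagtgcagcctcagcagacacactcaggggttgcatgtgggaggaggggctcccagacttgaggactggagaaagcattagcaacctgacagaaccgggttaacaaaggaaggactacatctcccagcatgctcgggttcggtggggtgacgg
Tuba1a: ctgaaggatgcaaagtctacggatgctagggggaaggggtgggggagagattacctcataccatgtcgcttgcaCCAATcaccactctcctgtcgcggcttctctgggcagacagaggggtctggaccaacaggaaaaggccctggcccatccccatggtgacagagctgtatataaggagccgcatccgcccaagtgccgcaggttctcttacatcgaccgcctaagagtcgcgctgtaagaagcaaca
Kif17: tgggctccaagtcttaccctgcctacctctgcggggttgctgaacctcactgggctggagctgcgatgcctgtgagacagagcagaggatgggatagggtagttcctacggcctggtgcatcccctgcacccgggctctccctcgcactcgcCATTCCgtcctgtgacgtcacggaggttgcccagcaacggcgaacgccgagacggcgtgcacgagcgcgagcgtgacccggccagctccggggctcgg
Tubb3: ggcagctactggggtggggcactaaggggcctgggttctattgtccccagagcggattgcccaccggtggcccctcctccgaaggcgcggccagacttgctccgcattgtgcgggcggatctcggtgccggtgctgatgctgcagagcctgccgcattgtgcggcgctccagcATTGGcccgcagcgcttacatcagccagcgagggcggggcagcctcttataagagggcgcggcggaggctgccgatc
Tuba3a: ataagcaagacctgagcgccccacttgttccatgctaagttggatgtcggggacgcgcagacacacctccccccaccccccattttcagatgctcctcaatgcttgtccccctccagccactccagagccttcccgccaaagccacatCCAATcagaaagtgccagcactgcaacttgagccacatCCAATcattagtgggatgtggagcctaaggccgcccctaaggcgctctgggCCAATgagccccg

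CCAAT stands in 24 of 51 member windows (47.1%), against 33.9% of all 32851 windows of the same length. Member windows had a median GC content of 61.6%, against 52.4% in all windows, and the part of this in the motif counts was not tested. CCAAT stands in 6 of 9 windows of members that rose and in 3 of 9 of members that fell. The 6 windows are those of Kif11, Kif18b, Kif1b, Kifc5b and Tuba1a, so a gene can count more than once. GGAATG stands in 4 member windows (7.84%, against 12.6% of all), those of Kif12, Kif17, Kif6 and Tubb5. TTTGAA stands in 10 (19.6%, against 16.0%), with Kif11 and Kif15 among the members that rose. TAATTG stands in 3 (5.88%, against 7.17%), those of Kif6 and Kif9. These are matches of letters and no evidence of binding.

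The second comparison asked whether motors and tubulins differ between YAP-null and wild-type oocytes. In GV oocytes, limma passed 0 of 43 tested members (0% of all 10462 genes tested passed). An unadjusted p under 0.05 was found for 0 of the 43 members, beside 22 of all genes (0.21%). Yap1 itself did not pass, though at 5.19% of its wild-type value in YAP-null GV oocytes. The test thus missed a known difference, and its counts of 0 do not show that members were equal. The smallest unadjusted p of a member was 0.418, for Tuba1a. The log2 differences of members ran from -0.40 (Tubb2a) to 0.46 (Kif26b), with medians of 0.03 over kinesins, -0.07 over tubulins and -0.0035 over all genes. An exact permutation test of 2 against 2 libraries could not give a p below 0.333.

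The members with the smallest p in this comparison had small or uneven differences. Tuba1a was at 1.60 and 1.44 FPKM in YAP-null oocytes and 3.10 and 1.54 FPKM in wild-type oocytes (difference -0.36). Tubb2a was at 81.6 and 339.6 FPKM in YAP-null oocytes and 127 and 379 FPKM in wild-type oocytes. Kif21b, a motor of neurons and lymphocytes, was at 0.732 and 3.16 FPKM in YAP-null oocytes and 1.53 and 3.004 FPKM in wild-type oocytes, so its groups overlap. On the other side Kif26b was at 0.362 and 2.66 FPKM in YAP-null oocytes and 0.256 and 1.099 FPKM in wild-type oocytes, Kif24 at 11.7 and 14.4 FPKM and 9.81 and 11.6 FPKM, and Kif26a at 1.21 and 3.16 FPKM and 1.33 and 2.03 FPKM. Of these, only Kif24 had both YAP-null values above both wild-type values, with a difference of 0.26.

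The GV libraries differed far more by number than by genotype. Between library 2 and library 1 of the same genotype, 19 of 43 members (44.2%) lay at least 2-fold apart in YAP-null and 16 (37.2%) in wild type, beside 26.7% and 23.3% of all genes. Between genotypes within number 1 and within number 2 it was 0 of 43 each, beside 1.65% and 1.51% of all genes, and the members' differences ran from -0.66 to 0.36 and from -0.43 to 0.80. Of 43 members, 40 had the same sign between the numbers in both genotypes, a share not counted over all genes. The correlation of the number 2 minus number 1 difference between genotypes was 0.976 over these 43 genes, as a description of 4 libraries. Over all 10462 genes tested it was 0.849. Kif20b, Kif5c and Tubg2 stood out, higher in both libraries numbered 2 by 3.18 to 4.15. In the other direction, Kif22 differed by -1.49 (YAP-null) and -1.16 (wild type) on the log2 scale, and Tuba3a by -1.14 and -1.22. The summed oocyte markers moved with the number as well, at 10849 and 11412 FPKM in the libraries numbered 2 (YAP-null and wild type) and 7064 and 7882 FPKM in those numbered 1, with 9 of 10 markers higher in number 2 in each genotype. Oosp1 went the other way, at 816 and 884 FPKM in number 2 and 2083 and 1973 FPKM in number 1. The labels do not say what the number stands for, and the part of these markers in the result was not tested.

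**Figure D4:**
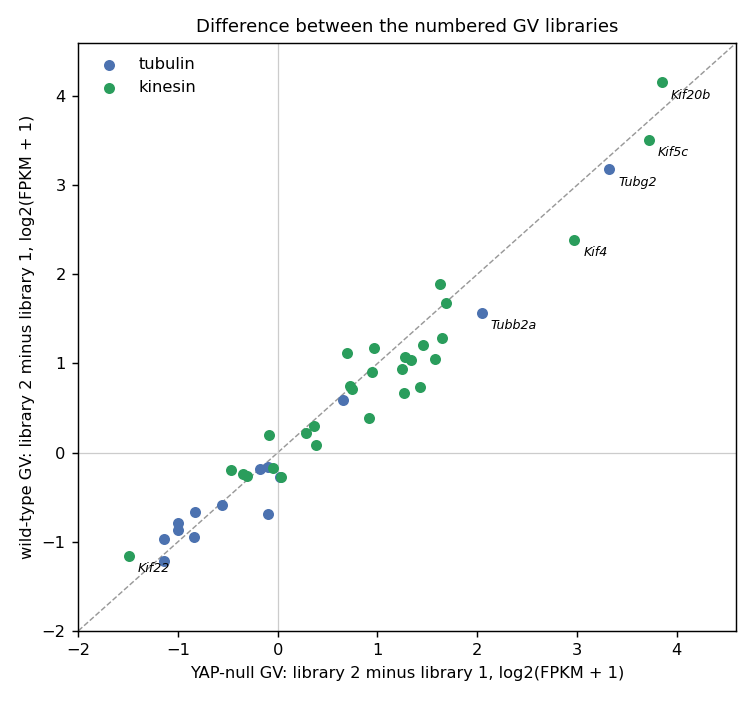
Log2(FPKM + 1) difference of library 2 minus library 1 in YAP-null GV oocytes (x axis) against the same in wild-type GV oocytes (y axis), with 1 point for each of the 43 members averaging 1 FPKM or more in GV oocytes; the dashed line marks equal values. Points follow the line from Kif22 (-1.49 and -1.16) to Kif20b (3.85 and 4.15).

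The third comparison set the YAP-null 4-cell library beside the wild-type one. With 1 library per genotype there is no test and no spread between embryo samples. Of 42 members with a mean of at least 1 FPKM, 7 (16.7%) were at least 2-fold higher in YAP-null embryos on the log2(FPKM + 1) scale and 0 were lower, beside 17.7% higher and 9.97% lower of all 10854 genes, so the share of higher members is near that of other genes. By family, 5 of 14 tubulins (35.7%) and 2 of 28 kinesins (7.14%) were at least 2-fold higher. The median difference was 0.29 over tubulins and -0.13 over kinesins, beside 0.05 over all genes. All 7 had deposited bounds that did not overlap between the libraries. These bounds cover error within a library only, the 7 were picked for their difference, and overlap was not counted over all genes.

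Of the 7 members higher in YAP-null embryos, Tubb2a, Tubb2b, Tubb3, Tuba3a and Kif17 had fallen between the oocyte and the 4-cell stage. Such a share was not counted over all genes. Tubb2a was at 44.5 FPKM (bounds 36.5 to 46.5) in YAP-null and 7.35 FPKM (bounds 5.42 to 9.01) in wild-type embryos, 6.06-fold higher. Tubb2b was 5.94-fold, Tubb3 3.99-fold and Tuba3a 2.08-fold higher, from the values given above. Tubb6 did not reach 2-fold on the log2(FPKM + 1) scale, at 50.1 and 26.5 FPKM, which is 1.89-fold. Against the mean of their own genotype's GV libraries, the YAP-null and wild-type 4-cell libraries held 21.1% and 2.90% of Tubb2a and 5.55% and 0.850% of Tubb2b. They held 12.6% and 3.58% of Tubb3, and 12.4% and 5.64% of Tuba3a. These genes and Kif17 were picked for a higher YAP-null 4-cell value, so the order of YAP-null above wild type largely follows from that choice. Further members shared this order, among them Kif17 (12.8% and 2.30%), Tubb6 (16.1% and 7.96%) and Kif9 (37.8% and 33.5%), and others did not. Tuba4a was nearly equal, at 12.9% and 12.7%. Tubb4b, which did not pass the stage test, was at 57.7% and 78.2%, Kif3a at 13.8% and 36.5%, and Kif26a at 0% and 30.6%.

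Tubg2 was at 81.8 FPKM (bounds 69.7 to 82.4) in YAP-null and 15.0 FPKM (bounds 12.0 to 17.2) in wild-type 4-cell embryos, 5.44-fold higher, while its paralog Tubg1 was at 107 and 100.4 FPKM. The YAP-null value of Tubg2 lay within the range of the YAP-null GV libraries, 11.6 to 125 FPKM, and the wild-type value beside the lower wild-type GV value of 15.1 FPKM. Kif17 was at 12.0 FPKM (10.5 to 13.5) in YAP-null and 2.20 FPKM (1.63 to 2.78) in wild-type embryos, also 5.44-fold higher. Kif5c was at 13.9 FPKM (12.7 to 15.0) and 4.73 FPKM (4.15 to 5.29), 2.94-fold higher. These were the only kinesins past the 2-fold rule.

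Markers of the oocyte moved the same way: 10 of 10 had a higher value in YAP-null embryos, with a summed level of 1164 FPKM there and 168 FPKM in wild-type embryos, and none at 0. Of the 10 cleavage-stage markers 2 were higher in YAP-null embryos, with sums of 833 FPKM there and 1086 FPKM in wild type. Of the granulosa and cumulus cell markers, Nr5a2 was at 92.1 FPKM in YAP-null embryos and 179 FPKM in wild-type ones, and the other 12 summed to 1.89 and 1.81 FPKM. Those of stroma and blood summed to 41.0 and 55.0 FPKM. The part of these markers in the tubulin difference was not tested, and with 1 library each, genotype and library cannot be told apart.

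On the lower side no member reached 2-fold on the log2(FPKM + 1) scale. Kif3a was the most negative, at -0.88, and on the linear scale it was at 1.05 FPKM (bounds 0.732 to 1.35) in YAP-null and 2.77 FPKM (bounds 2.31 to 3.24) in wild-type embryos, 0.379 times the wild-type value. It passed the 2-fold rule with a pseudocount of 0.25 FPKM, with quantile normalization and with median-ratio scaling. Kif5b was at 17.99 and 29.4 FPKM in the YAP-null and wild-type 4-cell libraries (difference -0.68), Kif20a at 78.1 and 118 FPKM (-0.59), Kif22 at 154 and 226 FPKM (-0.55), Kif16b at 12.4 and 18.4 FPKM (-0.54) and Kif2a at 15.0 and 21.1 FPKM (-0.47). All 15 spindle and cytokinesis motors lay between -0.59 and 0.40, with 9 of 15 below 0. Of the members that rose with stage, Kif18b (0.01), Tubg1 (0.09) and Kifc5b (-0.10) were close between the 4-cell libraries, while Kif5b and Kif20a were among the most negative. The stage and the 4-cell comparison share the 4-cell libraries.

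**Figure D5:**
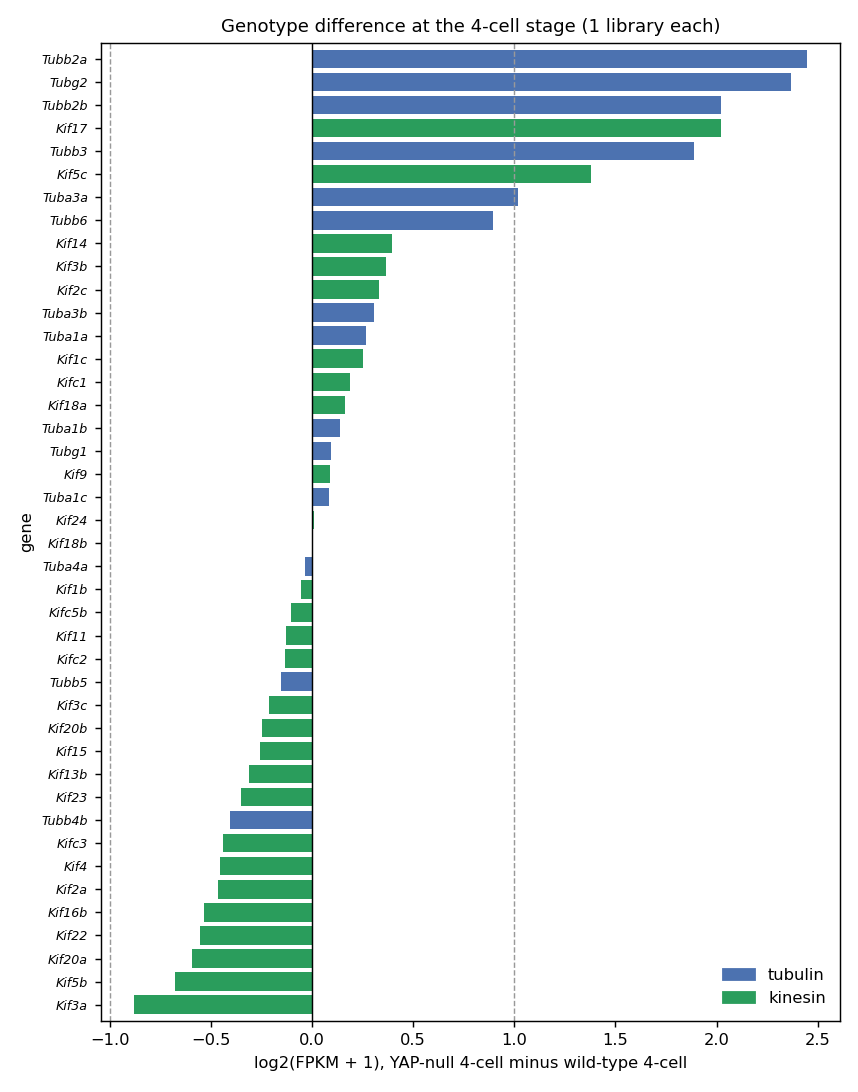
Log2(FPKM + 1) difference of the YAP-null minus the wild-type 4-cell library (x axis) for the 42 members with a mean of at least 1 FPKM there (y axis), tubulins in blue and kinesins in green, with dashed lines at 2-fold. There is 1 library per genotype and hence no error bar; 7 bars pass the upper line, from Tubb2a (2.45) to Tuba3a (1.02), and none the lower.

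Other genes of the microtubule system were taken from fixed lists, of which 104 symbols were in the tables and 93 passed the filter for the stage test. Of these 93, 13 rose and 22 fell (14.0% and 23.7%, beside 28.2% and 27.8% of all genes), with a median difference of -0.37. In the dynein and dynactin list 1 of 24 rose and 8 fell, in the list of gamma-tubulin ring complex and nucleation genes 4 of 18 rose and 2 fell, in that of microtubule-associated and spindle proteins 3 of 27 rose and 6 fell, in that of folding cofactors and tail enzymes 3 of 14 rose and 3 fell, and in that of kinesin light chains, adaptors and kinesin-7 2 of 7 rose and 0 fell. The tubulins outside the name rule all fell, 3 of 3.

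Stmn3, a tubulin-binding stathmin, rose to 107 and 163 FPKM in the YAP-null and wild-type 4-cell libraries and was listed at 0 in every GV library. Haus2 and Haus6, subunits of augmin, which branches microtubules off existing ones, rose to 8.79 and 24.7 FPKM and to 60.4 and 77.9 FPKM, against 0.125 to 1.87 FPKM and 5.36 to 11.5 FPKM in GV. The dynein light intermediate chain gene Dync1li1 rose to 33.1 and 38.0 FPKM, against 2.62 to 4.25 FPKM in GV. On the falling side, Mapre2, a plus-end binding protein gene, was at 11.6 and 1.28 FPKM in the YAP-null and wild-type 4-cell libraries, against 23.9 and 59.6 FPKM in YAP-null and 24.4 and 54.2 FPKM in wild-type GV libraries. The delta-tubulin gene Tubd1 was at 1.37 and 2.48 FPKM in the 4-cell libraries and 16.5 to 24.5 FPKM in GV, the alpha-like Tubal3 at 4.32 and 0.288 FPKM and 10.4 to 21.1 FPKM, and the dynein intermediate chain gene Dync1i2 at 21.2 and 13.1 FPKM and 83.2 to 103 FPKM. All 8 passed the stage test.

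Between the 4-cell libraries, 13 of 92 genes of the list were at least 2-fold higher and 11 lower in YAP-null (14.1% and 12.0%, beside 17.7% and 9.97% of all genes). Mapre2, the light chain gene Dynlt3 (18.6 and 3.35 FPKM in the YAP-null and wild-type libraries) and Agtpbp1, which trims tubulin tails (30.3 and 9.37 FPKM), had the largest positive differences among those reaching 10 FPKM, at 2.46, 2.17 and 1.59. Dctn5, of dynactin (5.24 and 17.1 FPKM), Haus2 and the motor adaptor gene Spag9 (3.76 and 10.4 FPKM) had the largest negative ones, at -1.54, -1.39 and -1.26. In GV oocytes limma passed 0 of 90 genes of the list, and 0 had an unadjusted p under 0.05.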

How the data were processed

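Messenger RNA of 4-cell embryos (1 YAP-null and 1 wild-type library) and GV oocytes (2 of each) was sequenced with paired ends, per the labels. Per the submitters' processing notes, CASAVA 1.8 and TopHat were used with the mm9 build; how FPKM were computed, and with which annotation, is not stated. The authors deposited FPKM with a lower and an upper bound of unstated confidence level, per the file headers. Of 23813 lines per table, 1 failed line was dropped, and 260 symbols with several loci were summed. No label says that replicates came from separate animals, so p-values measure the spread between these libraries, which may be technical.

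Genes averaging 1 FPKM or more in the libraries compared were fitted as log2(FPKM + 1) with limma 3.58.1 (limma-trend, R 4.3.3), two-sided, with a threshold of 0.05 on the p-value adjusted over all genes by Benjamini-Hochberg: YAP-null against wild type in GV oocytes, and 4-cell against GV with genotype as a term. The 4-cell genotypes were compared by a 2-fold rule without a test. Both fits were checked on simulated data. Members, lists and tests were chosen with earlier results of these data known, and the promoter windows and the settings on GV numbers after seeing the data. The text names tubulins with a mean of 1 FPKM or more, the 12 highest kinesins and up to 8 kinesins per direction of the stage test. It also names 5 members at 10 FPKM or more per direction between 4-cell libraries and 3 per direction by p in GV oocytes. Of other microtubule genes it names 4 (stage) and 3 (4-cell) per direction. Kif3a between 4-cell libraries, the stage values of Kif14 and members near 0 were added after their values were seen. Alternatives were other pseudocounts, filters, scalings and fold rules, a replicate block, single genotypes, and libraries left out.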

Additional observations from a re-analysis of the deposited data

Results flagged for a closer look

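Kifc3, a minus-end motor of epithelial cells, had opposite stage directions in the genotypes. The YAP-null 4-cell library (31.0 FPKM) lay below both YAP-null GV libraries (35.3 and 36.0 FPKM), and the wild-type 4-cell library (42.4 FPKM) lay above both wild-type GV libraries (42.1 and 34.5 FPKM). The difference between the genotypes was not tested, and the wild-type margin over 42.1 FPKM is small.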

How the results depend on the processing

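Depth is unknown, each genotype has 1 4-cell library, and each GV genotype has 2, which limits every value here. Of the stage differences of named members, 436 comparisons with another setting (libraries left out apart) kept direction and side of the threshold, 38 no longer passed, 9 newly passed and 18 changed sign, each in a member that had not passed; causes were not tested. Over all genes the median stage difference was -0.10 as deposited, -0.02 after median-ratio scaling, -0.18 after rescaling to one sum and -0.20 after quantile normalization, and the median 4-cell genotype difference 0.05, -0.13, 0.23 and -0.06, so a 4-cell median within these shifts, such as -0.13 over kinesins, has no fixed direction.

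For the stage test, YAP-null libraries alone gave 1894 genes higher and 1401 lower, 5 and 2 members, and 5 and 8 other microtubule genes. Wild-type libraries alone gave 6 members higher, and 8 other microtubule genes higher and 13 lower. GV values averaged within number gave 8 and 13 of these other genes, GV number 1 alone 25 higher, and a mean of at least 5 FPKM 8 higher. GV number 2 alone gave 16 members lower. Leaving out 1 library at a time gave 1650 to 3182 genes higher and 1315 to 3171 lower, 5 to 11 and 2 to 12 members, and 4 to 13 and 8 to 23 other microtubule genes, with the fewest genes higher without the wild-type 4-cell library.

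Signs turned for Kif22 (0.079), Kif2c (0.017), Kif4 (0.0031) and Kifc3 (0.057) after median-ratio scaling; for Kif22 (0.25), Kif4 (0.044), Kif5c (-0.17) and Kifc3 (0.15) in wild type alone; for Kif2a (-0.044), Kif2c (0.13) and Tubg2 (1.06) in YAP-null alone. Against GV number 1 alone they turned for Kif2c (0.10), Kif4 (1.26) and Tubg2 (1.36), and against number 2 alone for Kif22 (0.66), Kif2a (-0.19), Kif5c (-1.35) and Kifc3 (0.038). With 1 library left out, ranges were -0.29 to 0.35 for Kif22, -0.044 to 0.58 for Kif2a, -0.26 to 0.13 for Kif2c, -0.70 to 0.57 for Kif4, -0.43 to 1.30 for Kif5c, -0.20 to 0.15 for Kifc3 and -1.59 to 1.06 for Tubg2. For the GV genotype difference they were -0.26 to 0.65 for Kif26a, -1.42 to 0.62 for Tubb2a and -0.88 to 0.39 for Kif21b.

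With a replicate block the GV genotype test passed 2 genes and 0 members, and without 1 library 2 to 7 genes and 0 members. The labels do not say that a number marks a shared animal or day; deviations of same-numbered libraries had a correlation of 0.849 over 10462 genes.

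Between 4-cell libraries, Kif3a, 1 member, was at least 2-fold lower with a pseudocount of 0.25 FPKM, with quantile normalization and with median-ratio scaling, and a 4-fold rule left 4 members higher. Of the other microtubule genes a pseudocount of 5 FPKM left 4 higher and 3 lower, a mean of at least 5 FPKM 8 higher, quantile normalization and median-ratio scaling 8 higher each, rescaling to one sum 7 lower, and a 4-fold rule 4 higher and 0 lower. The stage difference of the summed kinesins was -0.0031 after rescaling to one sum and -0.024 to 0.19 with a library left out; that of the summed tubulins was -1.65 without the most abundant member and -1.27 to -1.10 with a library left out.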
